A study of Homo sapiens with 6 samples.

Results

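The genes that encode the chains of collagen, found by a symbol made of COL, a number, A and a number, came to 44 of the 27968 genes measured. They were compared between A549 and H23, 2 established human lung cancer cell lines. RNA was sequenced from 3 independent cultures of each line, without treatment, and the labels name no engineered genetic change. A549 was grown in DMEM and H23 in a medium the labels spell RPM1640, both with 10% FBS, and both were lysed with TRIZOL at about 80% confluence, so line and medium changed together. Each line stands for a single tumour, and the labels name no subclone.

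Collagen is a triple helix of 3 chains, each a long run of a glycine-led repeat, and the gene symbols name its type and its chain. Fibrillar types (I, II, III, V, XI, XXIV, XXVII) build the banded fibres of connective tissue. Type IV builds the sheet of the basement membrane, the layer under every epithelium, type VII anchors that sheet to the tissue below, and types XV and XVIII sit within and beside it. FACIT collagens (IX, XII, XIV, XVI, XIX, XX, XXI, XXII) decorate fibres, type VI forms beaded filaments, types VIII and X form hexagonal nets, and types XIII, XVII, XXIII and XXV span the cell membrane. In the lung, alveolar epithelium and endothelium share a basement membrane rich in type IV, and fibroblasts lay down most of the fibrillar types.

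The A549 libraries held about 23399600 to 25348100 estimated counts and the H23 libraries 29395800 to 42421600. Levels are given as deposited TPM, which allow for transcript length and so let genes be compared. Non-coding RNAs took much of that scale in A549: genes with an mRNA entry held 58.2 to 61.1% of the TPM in A549 and 95.4 to 96.7% in H23. The non-coding RNA RMRP held 10.7 to 13.3% of the TPM in A549 and at most 0.000803% in H23. RPPH1, also non-coding, held 6.87 to 7.82% in A549 and at most 0.000509% in H23. TPM therefore reads low in A549 for any mRNA, and differences between lines are instead log2 folds of TMM-normalised counts, A549 over H23. Their standard errors are approximate, and every adjusted p is edgeR's (quasi-likelihood F test, Benjamini-Hochberg over all genes) unless another tool is named. H23 replicate 1 stood apart, with a chi-square per gene of 97.3 and 123 against the other H23 libraries, which differed from each other by 5.24. The A549 libraries differed by 3.65 to 3.81. Whether the gap in non-coding RNAs came with a difference in library preparation between the lines was not tested. Such a difference would change together with line, and the log2 folds cannot separate them. All 5 epithelial markers were present in both lines, summing to 3333 to 3371 TPM in A549 and 3981 to 4130 TPM in H23. KRT8 and KRT18 made up most of both sums, at means of 1436 and 1859 TPM in A549 and 1435 and 2618 TPM in H23. KRT19 averaged 50.9 TPM in A549 and 5.65 TPM in H23. EPCAM averaged 2.49 TPM in A549 and 6.82 TPM in H23, and CDH1 3.29 TPM in A549 and 13.1 TPM in H23. The 5 distal lung markers summed to 0.62 to 0.86 TPM in A549 and 2.90 to 3.81 TPM in H23. NKX2-1 averaged 0 TPM in A549 and 2.18 TPM in H23, NAPSA 0.65 TPM in A549 and 1.197 TPM in H23, and SFTPA1 was at 0 in both lines. SFTPB and SFTPC lay the other way, near the floor, at means of 0.057 and 0.047 TPM in A549 and 0.01 and 0 TPM in H23.

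Collagen genes as a group differ from other genes in build. They had a median of 47 coding exons against 7 in all other protein-coding genes of the GENCODE 29 annotation, and 24.7% of their internal coding exons were exactly 54 bases long, against 0.414%. In the fibrillar genes that share was 48.6%, and 84.2% of internal coding exons were a multiple of 9 bases, the length that codes for 1 repeat of the helix. The share of 54-base exons was 26.8% in FACIT genes and between 4.21%, in type IV, and 9.15%, in the membrane collagens, in the other classes with internal coding exons. The transcripts were long, with a median of 5679 bases over all 44 genes and 5837 bases over the 30 that were tested, against 2924 bases for all tested genes. Their median GC content was 55.0% over all 44 and 61.2% over those tested, against 49.97% for all tested genes.

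A549 carried more collagen mRNA than H23, and the genes beside COL5A2 at the top of the ranking differed. The summed level of the 44 genes was 404, 423 and 476 TPM in A549, against 113, 146 and 154 TPM in H23. The lines did not overlap. The ratio of the means was 3.15 on TPM, 5.11 on TPM rescaled to mRNA genes and 5.69 on normalised counts. With 3 libraries a line the exact two-sided permutation test gave p = 0.1, the smallest it can give. In A549, COL5A2, COL18A1, COL7A1, COL4A2, COL4A1 and COL5A1 made up 85.1% of the collagen TPM. In H23, COL5A2 also had the highest mean share, at 17.9% of the collagen TPM against 23.8% in A549. By mean share it was followed by COL6A2, COL6A1, COL4A5, COL12A1 and COL9A3. In H23 replicates 2 and 3, COL6A2 was above COL5A2, at 26.01 and 27.95 TPM against 23.78 and 27.82 TPM. RNA of a whole culture does not tell fewer expressing cells from less RNA per cell.

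Of the 44 genes, 30 passed the filter on low counts and were tested. Of these, 16 were higher in A549, where 37.6% of all tested genes were, and 10 were higher in H23, where 39.6% of all tested genes were. The 26 calls were 86.7% of the tested collagen genes, against 77.2% of all tested genes. For 26 of the 30 the libraries of the lines did not overlap, which held for 82.1% of all tested genes. Differences of at least 4-fold were called for 20 of the 30 collagen genes, 13 higher in A549 and 7 higher in H23, against 25.5% of all tested genes. The median log2 fold was 0.90 in the tested collagen genes and -0.03 in all tested genes. Leaving out H23 replicate 1 gave 16 calls toward A549 and 12 toward H23. Among all tested genes it gave 6839 toward A549 and 6935 toward H23, against 5801 and 6109 with every library.

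**Figure D1:**
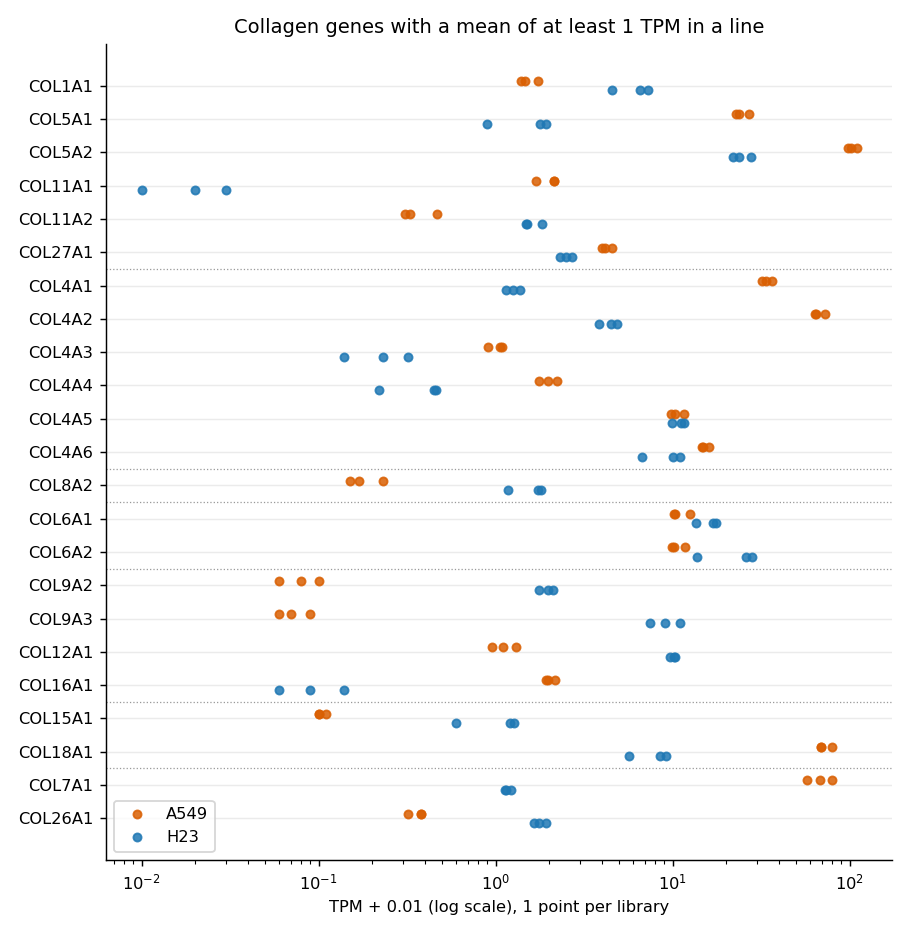
TPM + 0.01 on a log axis for each collagen gene with a mean of at least 1 TPM in a line, with 1 point per library, A549 in orange and H23 in blue and dotted lines between structural classes. COL4A1, COL5A1, COL7A1 and COL18A1 sit far to the right in A549, COL9A3 and COL12A1 far to the right in H23, and COL4A5 at about 10 TPM in both.

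**Figure D2:**
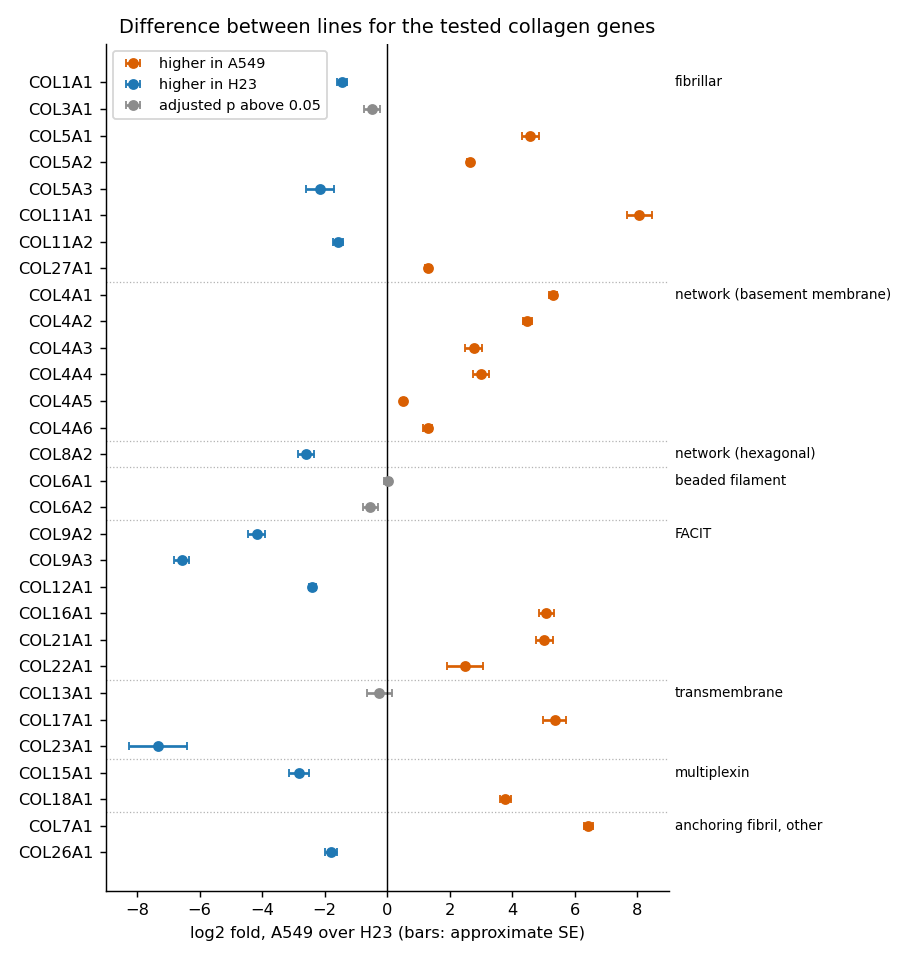
Log2 fold of A549 over H23 with its approximate standard error for the 30 tested collagen genes, by structural class. All 6 type IV genes lie on the A549 side, both type VI genes have an adjusted p above 0.05, and the fibrillar and FACIT classes lie on both sides.

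Type IV collagen was higher in A549 in all 6 of its genes, with a median log2 fold of 2.89. The genes lie in 3 pairs that start back to back and point away from each other, so that each pair shares the stretch between its start sites. All 6 genes had the same direction here, so a shared direction is not particular to a pair. The stretches between the start sites are shown as description, and their part in the differences was not tested. They are read on the plus strand of GRCh38.p14, from RefSeq, at chr13:110307158-110307283 for COL4A1 and COL4A2, chr2:227164489-227164623 for COL4A4 and COL4A3 and chrX:108439588-108439837 for COL4A6 and COL4A5. The third is the 250 bases before COL4A5 out of 379 between the start sites. Capitals mark CCAAT, the letters known from CCAAT boxes, and GGGCGG, the GC box, on either strand (ATTGG and CCGCCC on the other). TATAAA was also searched and was in none of the 3 stretches.
Between COL4A1 and COL4A2: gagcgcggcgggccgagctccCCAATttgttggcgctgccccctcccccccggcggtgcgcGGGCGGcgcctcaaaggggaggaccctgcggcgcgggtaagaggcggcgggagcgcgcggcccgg
Between COL4A4 and COL4A3: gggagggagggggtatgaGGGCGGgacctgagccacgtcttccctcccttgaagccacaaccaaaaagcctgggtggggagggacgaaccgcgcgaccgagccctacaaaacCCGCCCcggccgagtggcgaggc
Before COL4A5, towards COL4A6: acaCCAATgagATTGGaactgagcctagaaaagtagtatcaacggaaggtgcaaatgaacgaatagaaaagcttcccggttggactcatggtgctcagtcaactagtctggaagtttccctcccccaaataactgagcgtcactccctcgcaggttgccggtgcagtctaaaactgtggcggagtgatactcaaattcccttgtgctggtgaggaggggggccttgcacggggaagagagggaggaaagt
The COL4A1-COL4A2 stretch, with 80.2% GC, held CCAAT and GGGCGG once each, which 21.1% and 34.6% of promoter windows of that length hold. The COL4A4-COL4A3 stretch, with 68.1% GC, held GGGCGG at 2 places, and 35.5% of windows of its length hold it. The COL4A6-COL4A5 stretch, with 51.2% GC, held CCAAT at 2 places, which 32.0% of windows of its length hold, and no GGGCGG. The letters TATAAA are in 5.87%, 6.13% and 10.7% of windows of the 3 lengths. The motifs do not overlap one another. A match describes the letters and shows no binding.

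COL4A1 and COL4A2 encode the chains of the common basement membrane network. COL4A1 stood at 31.9, 33.5 and 36.4 TPM in A549, against 1.37, 1.24 and 1.14 TPM in H23. COL4A2 stood at 63.6, 64.5 and 72.8 TPM in A549, against 4.85, 4.48 and 3.82 TPM in H23. Neither overlapped between the lines, and the log2 folds were 5.31 ± 0.13 (adjusted p = 2.99e-07) and 4.48 ± 0.15 (adjusted p = 7.33e-07). COL4A2 exceeded COL4A1 in every library, by 1.99, 1.92 and 1.998 times in A549 and by 3.54, 3.61 and 3.35 times in H23. The ratios did not overlap between the lines, and the exact two-sided permutation p was 0.1, the smallest possible here.

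COL4A3 and COL4A4, whose chains join with that of COL4A5 in the basement membranes of kidney glomerulus and lung alveolus, were scarce in both lines. COL4A3 was at 0.90, 1.08 and 1.05 TPM in A549, against 0.13, 0.22 and 0.31 TPM in H23, a log2 fold of 2.77 ± 0.27. COL4A4 was at 1.98, 1.76 and 2.21 TPM in A549, against 0.21, 0.44 and 0.45 TPM in H23, a log2 fold of 3.01 ± 0.26. All A549 libraries lay above all H23 libraries for both genes, with adjusted p = 7.84e-05 and 4.68e-05. The ratio of COL4A4 to COL4A3 was 1.98 ± 0.31 in A549 and 1.69 ± 0.28 in H23 (SD, n = 3 each) and overlapped.

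COL4A5 and COL4A6, the pair on the X chromosome, were the type IV genes closest in level between the lines. COL4A5 had 9.83, 10.3 and 11.6 TPM in A549, against 9.88, 11.1 and 11.6 TPM in H23, and these overlapped. On normalised counts it was higher in A549, at 59.3, 62.9 and 66.1 CPM, against 42.7, 43.9 and 45.5 CPM in H23, with a log2 fold of 0.51 ± 0.08 (adjusted p = 0.00101). That fold became -0.038 on log2(TPM + 1) (limma adjusted p = 0.758) and 0.61 once TPM was rescaled to mRNA genes (limma adjusted p = 0.000917). COL4A6 had 14.9, 14.7 and 16.1 TPM in A549, against 6.68, 9.99 and 11.0 TPM in H23, without overlap, and a log2 fold of 1.29 ± 0.15 (adjusted p = 0.000225). COL4A6 exceeded COL4A5 in A549, at a ratio of 1.39 to 1.52, and was below it in H23, at 0.676 to 0.948, with an exact permutation p of 0.1.

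**Figure D3:**
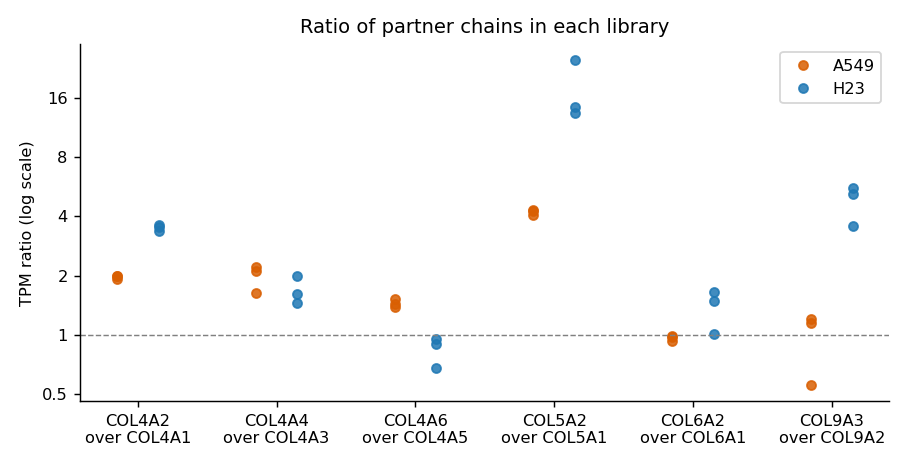
Ratio of the TPM of partner chains in each library on a log axis, A549 left of H23, with the dashed line at equal levels. The ratios of the lines do not overlap except for COL4A4 over COL4A3, and those of COL5A2 over COL5A1 are 4.08 to 4.32 in A549 and 13.4 to 24.8 in H23. Those of COL6A2 over COL6A1 come close, at 0.991 in A549 replicate 1 and 1.01 in H23 replicate 1. In A549, those of COL9A3 over COL9A2 rest on 3 to 6 counts for either gene.

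The other genes of the basement membrane zone split. COL7A1, whose product forms the anchoring fibrils of skin and other epithelia, had the largest log2 fold toward A549 among collagen genes above 5 TPM. It was at 57.6, 68.4 and 79.4 TPM in A549, against 1.13, 1.12 and 1.22 TPM in H23, without overlap, a log2 fold of 6.44 ± 0.14 (adjusted p = 2.23e-07). COL18A1, the source of the endostatin fragment, was at 68.9, 68.8 and 79.5 TPM in A549, against 5.67, 8.51 and 9.14 TPM in H23, also without overlap, a log2 fold of 3.78 ± 0.16 (adjusted p = 2.19e-06). Its relative COL15A1 went the other way, at 0.09, 0.09 and 0.10 TPM in A549, against 0.59, 1.19 and 1.26 TPM in H23, with a log2 fold of -2.83 ± 0.33 (adjusted p = 0.000203). H23 replicate 1 was the lowest H23 library for COL18A1 and COL15A1. COL17A1, a membrane collagen of hemidesmosomes, was below 1 TPM in every library and higher in A549, with 45, 59 and 68 counts, against 3, 1 and 2 counts in H23 (log2 fold 5.35 ± 0.36, adjusted p = 1.49e-05).

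Among fibrillar genes, type V had the highest level in both lines. Type V chains lie in the core of type I fibres and are known to start and limit their growth. COL5A2 had the highest mean of the collagen genes in both lines, though COL6A2 exceeded it in H23 replicates 2 and 3. COL5A2 was at 98.3, 102 and 110 TPM in A549, against 21.8, 23.8 and 27.8 TPM in H23. COL5A1 was at 22.7, 23.8 and 26.9 TPM in A549, against 0.88, 1.77 and 1.93 TPM in H23. Neither overlapped, and the log2 folds were 2.63 ± 0.09 (adjusted p = 9.99e-07) and 4.57 ± 0.27 (adjusted p = 8.13e-06). COL5A1 and COL5A2 chains are known to assemble in one molecule, with the COL5A1 chain in excess. The COL5A2 mRNA here exceeded that of COL5A1 by 4.32, 4.28 and 4.08 times in A549 and by 24.8, 13.4 and 14.4 times in H23, with no overlap and an exact permutation p of 0.1. COL5A3, the remaining type V chain, was below 0.25 TPM in every library and higher in H23 (log2 fold -2.15 ± 0.46, adjusted p = 0.00401).

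Type XI, the type V counterpart of cartilage, was divided by chain. COL11A1 was at 1.68, 2.14 and 2.14 TPM in A549, against 0, 0.02 and 0.01 TPM in H23. The H23 libraries held 0, 3 and 2 counts, and the log2 fold of 8.07 ± 0.41 (adjusted p = 4.08e-06) became 8.84 without H23 replicate 2. COL11A2 was at 0.30, 0.32 and 0.46 TPM in A549, against 1.83, 1.47 and 1.49 TPM in H23, without overlap and with a log2 fold of -1.57 ± 0.16 (adjusted p = 0.000114). COL2A1, the main collagen of cartilage, was nearly absent, with at most 8 counts in a library. The 5 chondrocyte markers summed to 12.1 to 14.3 TPM in A549 and 8.33 to 9.88 TPM in H23, and MATN3 alone set that order, at a mean of 10.5 TPM in A549 and 1.497 TPM in H23. The means of the others were higher in H23: SOX9 averaged 2.61 TPM in A549 and 6.43 TPM in H23, MATN1 0.02 TPM in A549 and 0.46 TPM in H23, and COMP 0 TPM in A549 and 0.54 TPM in H23, while ACAN was at or below 0.01 TPM in every library. Their part in the differences of types IX and XI was not tested.

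Type I, the most abundant collagen of the body, was represented by a single chain. It is normally built from COL1A1 and COL1A2 chains, though a form of COL1A1 chains alone is known. COL1A1 was at 1.46, 1.39 and 1.72 TPM in A549, against 4.53, 7.26 and 6.52 TPM in H23, lower in all A549 libraries (log2 fold -1.44 ± 0.16, adjusted p = 0.000177). COL1A2 had 0 counts in all A549 libraries and 0, 0 and 4 counts in H23, too few to test. COL3A1, of elastic tissues such as vessel wall, was at 0.33, 0.34 and 0.49 TPM in A549, against 0.52, 0.95 and 0.91 TPM in H23. Its log2 fold of -0.49 ± 0.25 missed the threshold (adjusted p = 0.121) and, with H23 replicate 1 left out, passed at -0.69 (edgeR adjusted p = 0.0017). COL3A1 lies beside COL5A2 on chromosome 2, and that neighbour was higher in A549. COL27A1, a type of growing cartilage, was at 4.15, 3.99 and 4.57 TPM in A549, against 2.29, 2.71 and 2.48 TPM in H23, with a log2 fold of 1.32 ± 0.09 (adjusted p = 1.54e-05). COL24A1 had 3 to 11 counts a library and was not tested. The 8 tested fibrillar genes comprised 4 with a call toward A549, 3 toward H23 and COL3A1.

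The 6 fibroblast markers summed to 6.88 to 8.18 TPM in A549, of which THY1 made up 6.09 to 7.37 TPM, and to 1.39 to 2.03 TPM in H23. LUM was at 0.18 to 0.34 TPM in A549 and 0.84 to 1.21 TPM in H23, and was higher in H23 (log2 fold -1.28 ± 0.29, adjusted p = 0.00512). PDGFRA was at 0.26 to 0.41 TPM in A549 and 0.40 to 0.64 TPM in H23, PDGFRB at most 0.14 TPM, FAP at most 0.18 TPM and DCN at 0 counts in both lines. The 4 endothelial markers summed to at most 0.09 TPM in A549 and 0.29 TPM in H23. The part of these markers in the differences of the collagen genes was not tested.

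Type VI was the class with no call. It is a microfibril of nearly all tissues, built from COL6A1 and COL6A2 with COL6A3 or a close relative. COL6A1 was at 10.3, 10.2 and 12.5 TPM in A549, against 13.5, 17.6 and 16.9 TPM in H23, and COL6A2 at 10.2, 9.98 and 11.7 TPM in A549, against 13.7, 26.0 and 28.0 TPM in H23. On TPM the H23 libraries lay above the A549 libraries for both genes, while normalised counts overlapped, at 39.9, 39.8 and 45.6 CPM in A549 and 37.3, 44.4 and 42.5 CPM in H23 for COL6A1. COL6A2 was at 31.0, 30.5 and 33.6 CPM in A549 and 30.0, 51.9 and 55.7 CPM in H23, where replicate 1 stood apart. The log2 folds were 0.01 ± 0.11 (adjusted p = 0.915) and -0.53 ± 0.23 (adjusted p = 0.0648). Neither direction was stable: COL6A1 stood at -0.50 on log2(TPM + 1) (limma adjusted p = 0.0116) and at 0.42 once its dependence on GC content and length was taken out (edgeR adjusted p = 0.000999). Leaving out H23 replicate 1 put COL6A2 at -0.77 (edgeR adjusted p = 4.49e-12), and the same GC and length correction at 0.056 (edgeR adjusted p = 0.714). COL6A3 had 8, 9 and 12 counts in A549, against 2, 1 and 3 counts in H23. COL6A6 had at most 3 counts in a library, and COL6A5 none in any.

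FACIT genes split evenly, with 3 of 6 tested members higher in each line. Higher in H23 were the chains of type IX, which coats cartilage fibres, and type XII, found on type I fibres of tendon and skin. COL9A3 was at 0.06, 0.05 and 0.08 TPM in A549, against 7.43, 9.08 and 11.1 TPM in H23. COL9A2 was at 0.05, 0.09 and 0.07 TPM in A549, against 2.09, 1.75 and 1.98 TPM in H23. Neither overlapped, and the log2 folds were -6.57 ± 0.24 (adjusted p = 1.12e-06) and -4.18 ± 0.27 (adjusted p = 1.21e-05). The A549 libraries held only 3 to 6 counts for either gene. COL9A1, whose chain completes the type IX molecule, had 0 counts in A549 and 5, 1 and 2 counts in H23, while COL9A3 exceeded COL9A2 in H23 by 3.56, 5.19 and 5.59 times.

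COL12A1 was at 0.94, 1.09 and 1.3 TPM in A549, against 9.63, 10.2 and 10.3 TPM in H23, lower in all A549 libraries, with a log2 fold of -2.40 ± 0.12 (adjusted p = 3.98e-06). The FACIT genes higher in A549 were scarcer. COL16A1 was at 1.93, 1.97 and 2.15 TPM in A549, against 0.05, 0.08 and 0.13 TPM in H23 (log2 fold 5.09 ± 0.25, adjusted p = 3.78e-06). COL21A1 stayed below 1 TPM and had 69, 88 and 66 counts in A549, against 4, 2 and 4 counts in H23 (log2 fold 5.03 ± 0.26, adjusted p = 4.38e-06). COL22A1, of the junction of muscle and tendon, had 29, 36 and 47 counts in A549, against 4, 18 and 7 counts in H23, and its log2 fold of 2.49 ± 0.57 (adjusted p = 0.00556) became 3.47 without H23 replicate 2. COL14A1 had 1 count over the A549 libraries and 9, 9 and 12 counts in H23, 19.7 times higher in H23 with a 95% counting interval of 3.27 to 802. COL20A1 had 3, 4 and 4 counts in A549, against 15, 8 and 9 counts in H23. COL19A1 had none in A549 and 2, 6 and 1 counts in H23.

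The remaining genes were scarce. COL8A2, of the hexagonal net under the corneal endothelium, was at 0.16, 0.22 and 0.14 TPM in A549, against 1.16, 1.79 and 1.73 TPM in H23, without overlap (log2 fold -2.59 ± 0.25, adjusted p = 7.51e-05). COL8A1 had 0 counts in all libraries and COL10A1, of hypertrophic cartilage, at most 8. COL26A1 was at 0.37, 0.31 and 0.37 TPM in A549, against 1.91, 1.65 and 1.74 TPM in H23 (log2 fold -1.81 ± 0.19, adjusted p = 0.000108). The membrane collagen COL23A1 had 0 counts in A549 and 34, 17 and 21 counts in H23, at least 15.7-fold lower in A549 against a floor of 3 counts over the line (adjusted p = 0.00127). COL13A1, another membrane collagen, had 13, 5 and 7 counts in A549, against 14, 11 and 21 counts in H23 and a log2 fold of -0.25 ± 0.40 that missed the threshold (adjusted p = 0.577). COL25A1, also of the membrane, had 0 counts in A549 and 2, 2 and 3 counts in H23, and COL28A1 at most 6 counts in a library. In all, 14 genes were not tested, with at most 15 counts in any library. Of the 44 genes, 5 were at 0 counts in A549 alone, 2 in both lines and 0 in H23 alone. The H23 libraries were the deeper ones. Over them COL1A2, COL25A1, COL9A1 and COL19A1 held only 4, 7, 8 and 9 counts, and COL23A1 held 72.

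Antisense genes overlap several members, and the strand setting of the counting is not given in the sources used here. The 6 listed antisense genes reached at most 0.50 TPM, in COL18A1-AS1.

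The lines also differed in which COL12A1 transcript they carried. Collagen XII is made as a long form with extra N-terminal repeats, which can carry sugar chains, and as a short form without them. The tables list a transcript of 11579 bases and one of 8087 bases. The shorter transcript was given 0 of the 857 COL12A1 counts of the A549 libraries and, in H23, 57.5, 44.6 and 42.9% of the gene's transcripts after scaling for length. Reads in the sequence that both transcripts share cannot tell them apart, so no upper limit on the share in A549 is given. The gene passed the usage test (diffSpliceDGE adjusted p = 2.64e-06), as did 25.9% of all genes tested for usage. The longer transcript alone was at 10.2, 12.02 and 13.4 CPM in A549, against 31.8, 40.2 and 41.6 CPM in H23, without overlap, and at 0.1 the exact permutation p was the smallest possible.

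**Figure D4:**
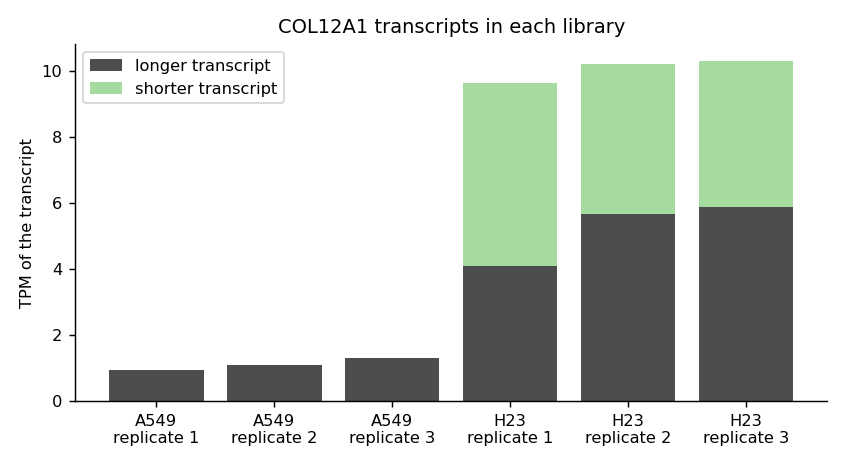
TPM of the longer and the shorter COL12A1 transcript in each library, stacked, with A549 left of H23. The A549 bars hold only the longer transcript, and the H23 bars, at 9.63 to 10.3 TPM in all, hold both.

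In total 8 collagen genes had at least 2 transcripts to test, and 3 passed. COL18A1 was carried almost wholly by its shortest transcript, at 99.8, 98.7 and 99.7% in A549, against 100, 100 and 99.2% in H23. It passed (adjusted p = 0.00839) on a transcript that reached 0.21, 0.68 and 0.34% in A549 and 0% in H23. COL11A2 passed (adjusted p = 0.0304, or 0.108 with Simes' combination over transcripts), but 28 transcript entries are listed for it, with up to 7 copies of 1 accession that share its reads, so its shares cannot be read as isoforms. COL4A6, COL5A1, COL6A2, COL8A2 and COL26A1 did not pass, with adjusted p from 0.104 to 0.907. For COL5A1, the main transcript held 88.8, 92.1 and 91.5% in A549, against 100, 100 and 93.8% in H23.

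Among 25 tested enzymes and chaperones that make collagen in the cell, 10 had a call toward A549, 11 toward H23 and 4 had none. These shares were close to the 37.6% of all tested genes called toward A549 and the 39.6% called toward H23. The list had a median log2 fold of -0.22. On log2(TPM + 1), 4 had a call toward A549 and 14 toward H23, beside 3868 and 8334 of all tested genes. Without H23 replicate 1, 10 had a call toward A549 and 15 toward H23, beside 6839 and 6935 of all tested genes. PLOD2, the lysyl hydroxylase that acts on the ends of the chains, averaged 119 ± 3.22 TPM in A549 and 9.34 ± 1.49 TPM in H23 (SD, n = 3 each; log2 fold 4.21 ± 0.16, adjusted p = 1.51e-06), and the fold was 3.16 after correction for GC content and length. PLOD1 and PLOD3, which act on the helix, were lower in A549, at log2 folds of -1.54 ± 0.22 and -1.302 ± 0.12. The prolyl hydroxylase subunit genes were divided too: P4HA3 averaged 17.6 ± 2.42 TPM in A549 and 1.38 ± 0.204 TPM in H23 (log2 fold 4.22 ± 0.14), while P4HA1 was higher in H23, at -1.22 ± 0.18, or -1.84 with that correction, and P4HA2 did not pass, at 0.03 ± 0.25. P4HA2 was at 62.8, 64.5 and 62.9 CPM in A549 and 37.7, 74.4 and 74.6 CPM in H23, where replicate 1 stood apart. SERPINH1, which encodes the collagen chaperone HSP47, was lower in A549, at a log2 fold of -1.25 ± 0.14. SEC23A and MIA2, of the export of large cargo from the endoplasmic reticulum, were higher in A549, at 1.301 ± 0.12 and 1.12 ± 0.25. MIA2 missed the threshold on log2(TPM + 1) (limma adjusted p = 0.0734) and stood at 0.51 with the GC and length trend removed.

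Of 16 tested genes that process and crosslink collagen outside the cell, 5 had a call toward A549, 9 toward H23 and 2 had none, beside 37.6% and 39.6% of all tested genes. The median log2 fold was -1.39 in the list and -0.03 in all tested genes. BMP1, the protease that cuts the C-terminal ends off procollagen, averaged 24.0 ± 2.62 TPM in A549 and 4.15 ± 0.501 TPM in H23 (SD, n = 3 each; log2 fold 3.10 ± 0.11, adjusted p = 8.85e-07). PCOLCE, which enhances that cut, was lower in A549, at a log2 fold of -3.60 ± 0.16. The crosslinking enzyme LOXL1 and the peroxidase PXDN, which links type IV collagen, were higher in H23, at -4.77 ± 0.27 and -1.71 ± 0.22. The relatives of LOXL1 were divided: LOX and LOXL3 were higher in H23, at -3.70 and -1.50, and LOXL4 was higher in A549, at 5.88. LOXL2, at a mean of 53.5 TPM in A549 and 100 TPM in H23, did not pass (log2 fold -0.34, adjusted p = 0.161). On normalised counts it was at 179, 176 and 193 CPM in A549 and 159, 263 and 272 CPM in H23, where replicate 1 stood apart. The matrix proteins SPARC and FN1 and the transglutaminase TGM2 were higher in A549, at 6.63 ± 0.19, 2.87 ± 0.18 and 0.98 ± 0.07.

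Among 8 tested collagen receptors, 3 had a call toward A549, 2 toward H23 and 3 had none, and the share toward A549 was that of all tested genes, 37.6%, with 39.6% of all genes toward H23. The median log2 fold was 0.65. After correction for GC content and length, 5 had a call toward A549. ITGA11, the integrin chain for fibrillar collagen, averaged 5.98 ± 0.644 TPM in A549 and 0.0133 ± 0.0153 TPM in H23 (SD, n = 3 each; log2 fold 9.38 ± 0.38, adjusted p = 1.7e-06), on 4 counts over the H23 libraries, and its fold became 10.68 without H23 replicate 2. Its partner chain ITGB1 had a log2 fold of 1.85 ± 0.07, or 1.03 with the GC and length trend removed. DDR1, a receptor kinase for collagen, was higher in H23, at -0.79 ± 0.28 (adjusted p = 0.0364), and missed the threshold without any 1 of A549 replicates 1, 2 and 3 (edgeR adjusted p of 0.102, 0.0925 and 0.0937) and without H23 replicate 2 or 3 (0.114 and 0.109). It also missed the threshold on mRNA TPM (limma adjusted p = 0.109) and after correction for GC content and length (edgeR adjusted p = 0.226).

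Of 6 tested collagen-degrading enzymes, 1 was higher in A549 and 5 were higher in H23, beside 37.6% and 39.6% of all tested genes, and the median log2 fold was -1.74. The count toward H23 was 4 after correction for GC content and length, on mRNA TPM and without any 1 library other than H23 replicate 1. MMP1, the interstitial collagenase, had 0 counts in A549 and averaged 6.38 ± 2.35 TPM in H23, at least 181-fold lower in A549 (adjusted p = 0.000176). CTSK, the bone collagenase cathepsin K, had a log2 fold of -2.47 ± 0.28. PEPD, which splits dipeptides that end in proline, was higher in A549, at 0.52 ± 0.14, and stood at -0.012 on log2(TPM + 1) (limma adjusted p = 0.951).

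**Figure D5:**
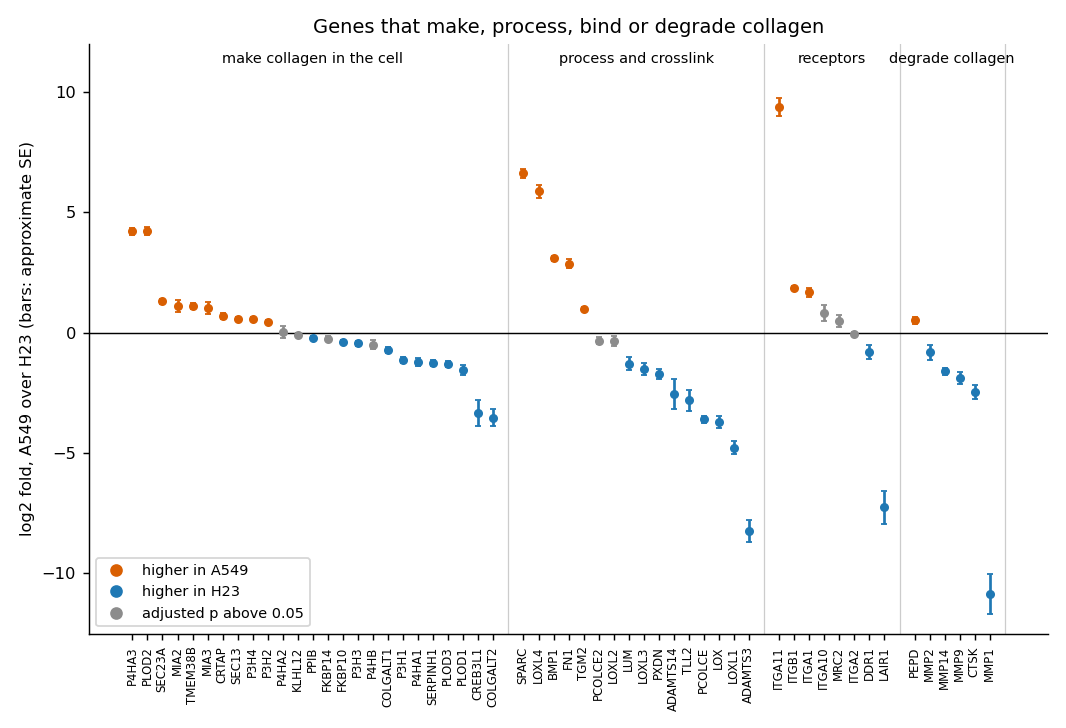
Log2 fold of A549 over H23 with its approximate standard error for the tested genes that make, process, bind or degrade collagen, sorted within each list. P4HA3 leads the genes that make collagen, SPARC those that process it and ITGA11 the receptors, while MMP1, with 0 counts in A549, lies lowest, where the fitted value depends on the counts added by the model.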

How the data were processed

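RNA sequencing of 3 A549 and 3 H23 cultures came as RSEM gene and transcript tables, 1 pair a library. The submitters' processing notes name STAR 2.6.0c, RSEM 1.3.0 and hg19. Per the labels' protocols, libraries were made from total RNA with a stranded kit after removal of ribosomal RNA. Expected counts, as deposited, are estimates per gene or transcript and are not scaled to depth. The deposited TPM are scaled for length and depth, per the file headers. The FPKM the authors deposited were not used beyond a check of the columns. The deposited percent values say how a gene's transcripts divide. The tables hold no coordinates, and no hg19 genome was used here; promoter sequences and their positions are RefSeq's on GRCh38.p14, with 32 of 44 members matched by symbol.

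Expected counts were rounded and fitted with edgeR 4.0.16 in R 4.3.3: filterByExpr with default settings (15426 genes kept), TMM factors of 0.985 to 1.02, a robust quasi-likelihood F test over all genes, Benjamini-Hochberg adjustment and a threshold of 0.05. Standard errors were taken as the size of the log2 fold divided by the root of its F. CPM use the TMM library sizes. Transcript usage was tested with diffSpliceDGE over 7539 genes. The common biological coefficient of variation was 0.168. A floor of 3 counts was worth 0.118 to 0.128 CPM in an A549 library and 0.0707 to 0.102 CPM in an H23 library; intervals and floors hold counting error alone. RSEM's model divided ambiguous reads, an error the tests leave out. Both tests were tried on simulated data. The gene test found 10% of changes with a log2 fold of 0.5, 66% at 1 and 96% at 2, with 9 false calls among 14948 unchanged genes. Small differences such as these can therefore be missed. The usage test found 100% of the 4-fold changes of 1 transcript, with 23 false calls among 2559 unchanged genes. P-values set the difference between the lines against the spread between these cultures alone.

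The members, lists and tests were chosen with earlier results of these data known. Values per library are printed for members with a mean of at least 5 TPM in the higher line and for the 3 called members per direction with the largest log2 fold above 1 TPM; other members whose values per library are given were picked after their values had been seen. From each list, up to 4 called genes per direction with at least 5 TPM were named by size of log2 fold, and other list genes were picked with their values known. The alternatives covered normalization, filter, tool (DESeq2 1.42.0), unit (limma 3.58.1 on log2 TPM with a pseudocount of 1 or 0.1), a replicate block, a GC and length trend from GENCODE 29 transcripts (98.3% of tested genes matched) and leaving out each library. TPM rescaled to mRNA genes was added after the data were seen.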

Additional observations from a re-analysis of the deposited data

How the results depend on the processing

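Over 17 alternatives, 25 of the 30 tested collagen genes kept their direction and their side of the threshold in all of them. COL3A1, COL4A5, COL6A1, COL6A2 and COL13A1 did not. COL4A5 turned to -0.038 on log2(TPM + 1) and to -0.041 on log2(TPM + 0.1). COL3A1 passed on both, and without H23 replicate 1. COL6A1 turned to -0.50 and -0.53 on those scales, to -0.12 with upper quartile factors, to -0.030 without A549 replicate 3 and to -0.059 without H23 replicate 1 (range without single libraries -0.059 to 0.065). COL6A2 turned to 0.056 with the GC and length trend taken out and to 0.074 with the replicate block added, and it passed toward H23 with DESeq2 and upper quartile factors. COL13A1 turned to 0.23 and 0.21 under that trend, and ranged from -0.70 to 0.049 without single libraries. PEPD turned to -0.012 on both TPM scales. The median log2 fold of all tested genes moved from -0.03 to -0.41 on log2(TPM + 1), -0.54 on log2(TPM + 0.1), -0.16 with upper quartile factors and 0.10 on mRNA TPM. On log2(TPM + 1), 15 collagen genes passed toward A549 and 13 toward H23, beside 3868 and 8334 of all tested genes. Among all genes, log2(TPM + 0.1) gave 3862 higher in A549, against 5801 in the reported fit. On both TPM scales, 4 of the genes that make collagen were higher in A549 and 14 in H23. Of the collagen-degrading enzymes, 0 were higher in A549 and 5 in H23 on those scales. For receptors, 5 were higher in A549 with the GC and length trend removed, with the replicate block, or with both. The receptors higher in H23 were 1 on mRNA TPM and 1 to 2 without single libraries. The cause of these shifts was not tested. The summed collagen level kept its direction in all its alternatives. With the replicate block, 16 collagen genes passed toward A549 and 10 toward H23, as without it, beside 5798 and 5893 of all tested genes. Deviations from the line means had r of -0.039 to 0.054 between same-numbered libraries. With 3 libraries a line and H23 replicate 1 apart, such values cannot tell whether the numbers pair libraries. COL13A1 had no value without H23 replicate 3, where it failed the filter. With no filter on low counts, 18 collagen genes passed toward A549 and 12 toward H23, beside 6399 and 6619 of all genes. Depth limits the scarce genes: COL28A1, with at most 6 counts a library, was 7.63 times higher in A549 with a 95% counting interval of 1.63 to 71.6.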
